A study of Mus musculus with 3 samples.

Results

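Light chain use by mouse B cells was followed through the transcripts of 4 constant genes, Igkc for kappa and Iglc1, Iglc2 and Iglc3 for lambda, which were matched by symbol among the 32285 genes of the count matrices. Peripheral blood mononuclear cells (PBMCs) came from female C57BL/6 mice in 3 groups: young mice of 8 weeks, aged mice of 16 months, and aged-GA mice of 16 months that received glycyrrhizic acid (GA, a compound of liquorice root) for 1 month. The labels give young and aged mice no treatment, while the methods of the study describe PBS as the control for GA. The young mice were purchased and the aged mice were reared in the laboratory. Each group was 1 library of 10x 3′ single-cell RNA-seq, and the study names several mice per group without saying whether they were pooled into the library, so no difference between groups could be tested and group, animal and library cannot be told apart.

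A B cell pairs an immunoglobulin heavy chain with a kappa or a lambda light chain. Kappa genes usually rearrange first, and a productive kappa chain ends the process, so that most cells keep a single light chain, which is called isotype exclusion. Mouse B cells use kappa far more often than lambda. Plasma cells secrete the finished antibody and make very large amounts of both its chains.

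B cells were the cells that passed the study's filters with 3 or more UMIs (unique molecular identifiers, 1 for each captured transcript) of Cd79a and Cd79b, which encode the signaling chains of the B cell receptor, and at most 1 UMI of Cd3d, Cd3e and Cd3g. Plasma cells were taken out by 20 or more UMIs of Jchain, which links secreted antibody units, and at least 2 detected genes of Mzb1, Xbp1, Sdc1, Prdm1, Tnfrsf17 and Derl3. This gave 2318 B cells of 8851 cells in young, 4558 of 10238 in aged and 5740 of 12648 in aged-GA, with 1, 44 and 33 plasma cells. None of the 4 constant genes entered either choice. Cells just inside the Cd79 rule, with 3 or 4 UMIs, numbered 29, 51 and 35, and cells just outside, with 1 or 2, numbered 39, 491 and 564. Barcodes with 3 or more UMIs of both Cd79 and Cd3 genes, 337, 295 and 664, were in neither class. The B cell gene Ms4a1 was seen in 82.1%, 87.3% and 91.0% of the B cells, and the T cell gene Trac stood at 3.41, 4.37 and 4.85 CPM (UMIs per 1000000) in B cells against 531, 484 and 437 CPM in T cells. The myeloid gene Lyz2 differed between libraries in both classes, with a UMI in 1.04%, 38.2% and 15.7% of B cells and 0.586%, 39.3% and 17.4% of T cells, and its part in the light chain values was not tested.

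The first 300 coding bases of each constant exon are shown because the counts of Iglc2 and Iglc3 rest on few differing bases. Sequences are from GENCODE vM21 transcripts (mm10), 5′ to 3′ on the coding strand. Igkc (ENSMUSG00000076609) lies on the plus strand, with these bases at chr6:70726435-70726734, and capitals mark its longest run shared with any lambda gene. The lambda genes lie on the minus strand, Iglc1 (ENSMUSG00000105906) at chr16:19061772-19062071, Iglc2 (ENSMUSG00000076937) at chr16:19198554-19198853 and Iglc3 (ENSMUSG00000105547) at chr16:19065382-19065681. Capitals mark bases of Iglc1 that differ from Iglc2 or have no partner there, and likewise bases of Iglc2 and Iglc3 against each other.
Igkc: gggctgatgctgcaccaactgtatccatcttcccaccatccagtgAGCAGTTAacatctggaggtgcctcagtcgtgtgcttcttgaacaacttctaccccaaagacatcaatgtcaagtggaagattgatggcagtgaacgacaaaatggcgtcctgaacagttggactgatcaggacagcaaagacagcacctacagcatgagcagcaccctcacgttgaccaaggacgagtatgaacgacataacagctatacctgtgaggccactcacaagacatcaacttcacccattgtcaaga
Iglc1: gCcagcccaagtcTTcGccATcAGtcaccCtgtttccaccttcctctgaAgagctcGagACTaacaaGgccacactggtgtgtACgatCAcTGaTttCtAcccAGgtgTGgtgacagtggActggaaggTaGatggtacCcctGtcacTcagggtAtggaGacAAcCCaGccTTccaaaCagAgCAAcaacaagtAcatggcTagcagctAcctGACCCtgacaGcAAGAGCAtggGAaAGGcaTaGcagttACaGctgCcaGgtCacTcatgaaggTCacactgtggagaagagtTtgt
Iglc2: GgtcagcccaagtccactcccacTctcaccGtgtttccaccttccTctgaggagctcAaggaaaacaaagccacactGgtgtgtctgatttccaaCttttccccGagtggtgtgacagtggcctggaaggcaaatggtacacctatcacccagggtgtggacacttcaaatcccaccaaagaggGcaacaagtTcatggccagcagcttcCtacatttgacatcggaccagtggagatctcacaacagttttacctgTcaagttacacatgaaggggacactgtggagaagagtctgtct
Iglc3: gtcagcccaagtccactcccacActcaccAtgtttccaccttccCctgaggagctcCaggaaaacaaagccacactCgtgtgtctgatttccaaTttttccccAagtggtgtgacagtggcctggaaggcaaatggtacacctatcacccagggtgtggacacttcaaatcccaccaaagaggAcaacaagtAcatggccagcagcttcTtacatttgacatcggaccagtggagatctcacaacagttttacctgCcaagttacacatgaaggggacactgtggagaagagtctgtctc

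Iglc2 and Iglc3 were identical at 303 of 314 aligned coding bases, or 96.5%. Of the 409 windows of 50 bases in the Iglc2 transcript, 43 were also found in Iglc3, and the longest shared run was 79 bases. Reads that lie wholly within a shared stretch cannot be told apart. Read length was not taken into account, so how far this affects the split between Iglc2 and Iglc3 was not tested. Iglc1 shared 73.2% of aligned bases with Iglc2 and no window of 50 bases. Igkc shared 52.6% to 56.5% with the lambda genes, and its longest common run with any of them was 8 bases. The annotation holds another transcript of Iglc2 whose first exon, chr16:19200198-19200351, covers the joining segment Iglj2 and the bases upstream of it. Igkc lies within the span of the noncoding gene Gm30211 on the same strand, and Iglc1 and Iglc3 lie within the span of 2010309G21Rik on the opposite strand.

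To see how the light chains were divided among cells, each B cell with 10 or more light chain UMIs was called kappa when lambda made up at most 20% of them, lambda at 80% or more, and both in between. In young mice 1568 of 2292 assigned cells were kappa, 90 were lambda and 634 were both. In aged mice the numbers were 2213, 272 and 2011 of 4496 cells, and in aged-GA mice 3487, 258 and 1940 of 5685. Kappa calls were thus the most frequent in every library, and cells under 10 UMIs made up 1.12%, 1.36% and 0.958% of B cells.

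Lambda cells were 3.93% of assigned B cells in young mice (95% Clopper-Pearson interval 3.17% to 4.8%), 6.05% in aged mice (5.37% to 6.79%) and 4.54% in aged-GA mice (4.01% to 5.11%). The intervals cover counting error only. Compared with young mice, aged mice had a lambda share higher by 0.62 on the log2 scale (0.29 to 0.96), and the aged-GA share differed from aged by -0.41 (-0.65 to -0.18). The intervals of young and aged-GA mice overlapped, with a log2 ratio of 0.21 (-0.13 to 0.55). Of kappa and lambda cells alone, without the both class, lambda made up 5.43%, 10.9% and 6.89%, with log2 ratios of 1.01 (0.68 to 1.34) for aged against young, -0.67 (-0.90 to -0.43) for aged-GA against aged and 0.34 (0.01 to 0.68) for aged-GA against young, so that the last interval left out 0 with this denominator. Aged stood highest and young lowest under each of the 12 ways of counting that were tried, while the share itself ranged from 1.76% to 6.28% for young mice, from 3.41% to 10.7% for aged mice and from 2.75% to 7.19% with GA. Median depth per B cell was 3414, 3191 and 3846 UMIs, and after each cell was thinned to 1000 UMIs the shares were 3.16%, 5.59% and 3.81%. Only 1549, 2845 and 3886 cells were then still assigned, 49, 159 and 148 of them lambda. Before thinning, median light chain UMIs were 35, 37 and 40 in lambda and 47, 43 and 55 in kappa cells, so loss by chain need not be even.

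**Figure D1:**
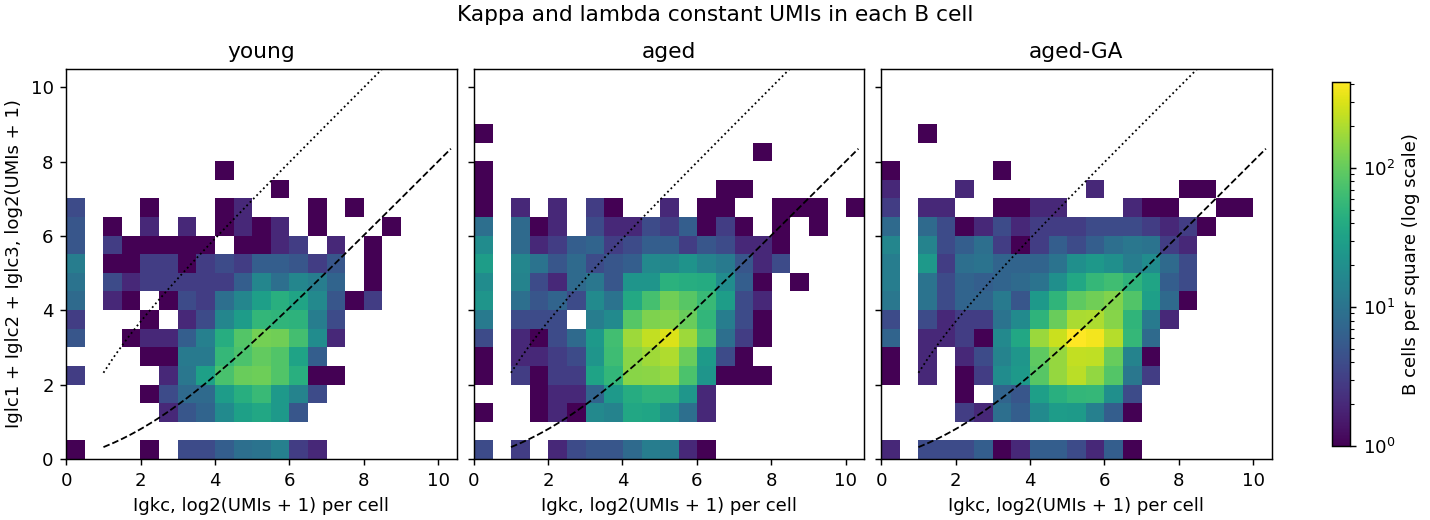
Igkc UMIs (x) against the sum of Iglc1, Iglc2 and Iglc3 UMIs (y) of every B cell, both as log2(UMIs + 1), in the 3 libraries; color gives the number of cells per square on a log scale, the dashed line marks 20% lambda and the dotted line 80% lambda. The main cloud of Igkc-rich cells straddles the dashed line, and a smaller group with few or no Igkc UMIs lies at the upper left.

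The both class held 27.7%, 44.7% and 34.1% of assigned cells. It formed no peak of its own along the lambda percentage. The number of cells fell from 804, 1444 and 2191 at 10% to 20% lambda to 416, 1062 and 1191 at 20% to 30% and 22, 112 and 70 at 50% to 60%, and was higher again at 95% to 100%, with 61, 182 and 154 cells. Cells called both held a median of 26.5, 25 and 30 Igkc UMIs and 11.5, 12 and 12 lambda UMIs. With a limit of 90% for a single chain the class grew to 64.1%, 78.8% and 74.1%. With Iglc1 alone as lambda, a count chosen after seeing the data, it shrank to 2.48%, 4.62% and 3.47%. Iglc1 made up only 4134 of 22687, 12615 of 55908 and 15083 of 71385 lambda UMIs in B cells, so shrinkage is built into that count. The size of the both class therefore depended on the limit and on which lambda genes were counted.

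**Figure D2:**
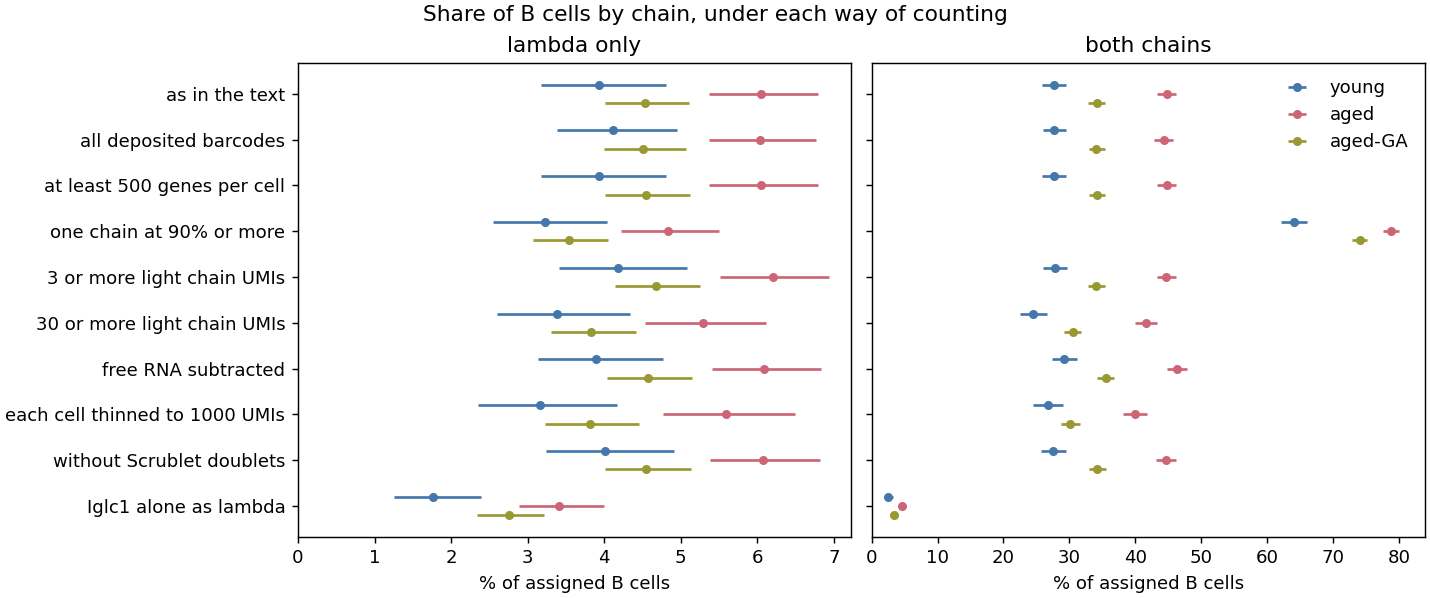
Percent of assigned B cells called lambda (left) or both (right), x axis, by way of counting, y axis, with 95% exact intervals for counting error; colors are the libraries. The counts by majority and with plasma cells included are not shown. The aged point is the highest in each row, and the both share runs from under 5% with Iglc1 alone to above 60% with the 90% limit.

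Iglc2 and Iglc3 transcripts were found in most kappa B cells, at low counts. Of kappa cells, 88.3%, 89.2% and 94.3% held an Iglc2 UMI (young, aged and aged-GA in turn), with a median of 3 in each library and levels of 873, 804 and 888 CPM. Iglc3 stood at 432, 564 and 585 CPM in the same cells, with a UMI in 73.2%, 83.6% and 87.6%. Iglc1 stood lower, at 131, 165 and 153 CPM, with a UMI in 24.9%, 32.8% and 35.2%. As 3′ counting gives a UMI per transcript end, levels are compared here without a correction for length.

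T cells, which should lack these genes, served as a gauge of free RNA. They were chosen with at most 1 Cd79 UMI, which also selects for little B cell RNA. Iglc2 stood at 2.19, 11.1 and 12.2 CPM in T cells of young, aged and aged-GA mice, Iglc1 at 0.854, 4.79 and 9.20 CPM and Iglc3 at 0.615, 5.11 and 5.20 CPM. Igkc in T cells was 14.7, 123 and 207 CPM, the last with 1366 of 5008 UMIs in a single cell. All 3 lambda genes thus stood far above this gauge in kappa cells. With every cell thinned to 1000 UMIs, an Iglc2 UMI was seen in 55.9%, 54.6% and 57.6% of kappa B cells against 0.246%, 1.18% and 1.46% of T cells. The unthinned share in T cells was 1.21%, 5.92% and 7.66%, at median depths of 5074, 4863 and 6027 UMIs.

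Lambda cells held little Igkc, as their call requires. Igkc stood at 461, 485 and 580 CPM in them, with medians of 0, 1 and 1 UMIs, against 12120, 10981 and 12038 CPM in kappa cells. The lambda sum was 10011, 10242 and 10485 CPM in lambda cells and 1436, 1533 and 1626 CPM in kappa cells. The opposite chain was therefore lower in lambda cells than in kappa cells in each library.

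**Figure D3:**
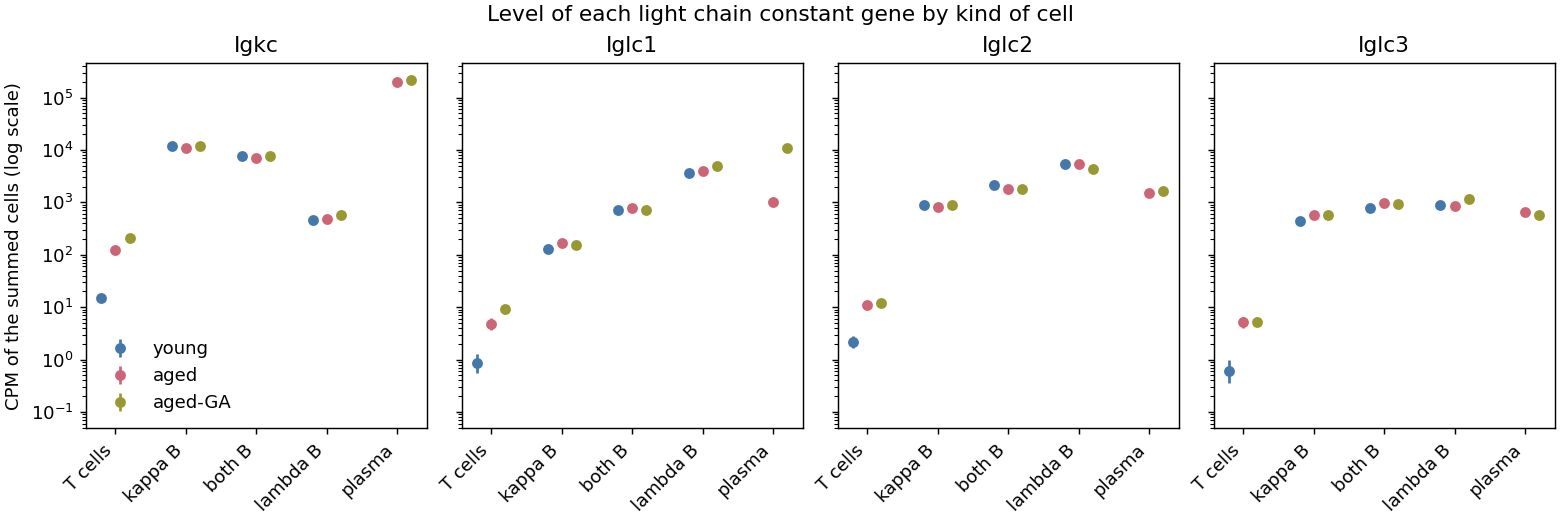
CPM (y, log scale) of Igkc, Iglc1, Iglc2 and Iglc3 in the summed T cells, kappa, both and lambda B cells and plasma cells of each library, with 95% Poisson intervals for counting error; the single plasma cell of young mice is left out. Iglc2 and Iglc3 in kappa B cells stand between 432 and 888 CPM, while T cells stand at 12.2 CPM or below for these genes.

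Exclusion was also read from levels without the calls, with limits set after seeing the data. Among cells with Igkc at 50 or more per 10000 UMIs, 5.63%, 11% and 6.47% in the young, aged and aged-GA libraries had lambda at 50 or more per 10000. Among cells below that Igkc level, 30.3%, 27.5% and 29.4% had such lambda levels. The intervals of the pair did not overlap in any library, and lambda-high cells were the rarer where Igkc was high. For Iglc1 at 20 or more per 10000, a gene with no 50-base window in common with the others, the shares were 2.23%, 4.81% and 2.85% against 19%, 18.5% and 24.1%. The relation was not graded through the kappa range. In young mice the lambda sum was 19.4 per 10000 in cells with Igkc at 50 to 100 and 26.6 in cells with 200 or more. It was 26.9 and 47.8 in aged mice and 22.1 and 30.8 in aged-GA mice.

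Cells high in both chains numbered 111, 385 and 309. Their median depth was 3376, 3063 and 3739 UMIs, against 3383, 3124 and 3807 in cells high in Igkc only. Scrublet, which scores each cell against simulated doublets, called 0%, 0.779% and 1.62% of them, against 1.08%, 1.80% and 3.00% of the Igkc-only cells. Cells high in both were thus neither deeper nor more often called doublets. Doublets of 2 B cells are hard for such a score to find, and their part was not tested.

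Lambda cells were divided mainly between Iglc1 and Iglc2. The gene with 60% or more of a cell's lambda UMIs was Iglc1 in 37 of 90 lambda cells in young, 106 of 272 in aged and 119 of 258 in aged-GA mice. Iglc2 led in 45, 106 and 75 cells, or 50%, 39% and 29.1%. Iglc3 led in 4, 5 and 13 cells, and no gene led in 4, 55 and 51. The exact intervals of Iglc1 and Iglc2 overlapped within young and within aged mice and did not overlap within aged-GA mice. Between libraries the intervals for Iglc1 overlapped, while those for Iglc2 in young (39.3% to 60.7%) and aged-GA mice (23.6% to 35.0%) did not. These intervals cover counting error only, not spread between mice, and the shares within a library are not independent. The order within a library depended on the limit. At 80% of a cell's lambda UMIs, Iglc1 led in 18.9%, 21.7% and 24.4% of lambda cells and Iglc2 in 40%, 22.4% and 16.3%, and the intervals of the pair then overlapped within aged-GA and did not overlap within young mice. Cells led by Iglc1 still held Iglc2 at 13.7, 15.1 and 15.4 per 10000 UMIs, while cells led by Iglc2 held Iglc1 at 9.43, 11.9 and 12.6.

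Variable segments lie at the other end of the same transcripts and were not used in the calls. They are thinly sampled by 3′ capture. Iglv1, a lambda variable segment, had a UMI in 20 of 90, 42 of 272 and 33 of 258 lambda cells, or 22.2%, 15.4% and 12.8%, against 1.40%, 1.54% and 1.52% of kappa cells. Iglv2 had a UMI in 4, 14 and 8 lambda cells and in 0, 1 and 1 kappa cells. The exact intervals of lambda and kappa cells did not overlap for Iglv1 or Iglv2 in any library. Iglv3 was less divided, with 7.78%, 4.04% and 4.26% of lambda cells and 4.53%, 2.98% and 2.55% of kappa cells, and the intervals overlapped in each library. In T cells Iglv3 had 0, 1 and 2 UMIs in all.

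The kappa variable segments followed the calls as well. Summed Igkv UMIs were 154, 118 and 74.3 CPM in kappa cells, against 26.5, 21.8 and 14.7 CPM in lambda cells and 0.205, 0.472 and 0.825 CPM in T cells. The most abundant segments were Igkv12-44, Igkv1-117 and Igkv1-135, with 371, 299 and 271 UMIs over all B cells. In lambda cells Igkv12-44 had 1, 2 and 2 UMIs, Igkv1-117 had 0, 1 and 0, and Igkv1-135 had 0 in each library. Cells called both held Igkv at 110, 77.5 and 55.7 CPM and Iglv1 in 2.37%, 2.59% and 2.78% of cells, which lies nearer to kappa than to lambda cells for both measures.

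**Figure D4:**
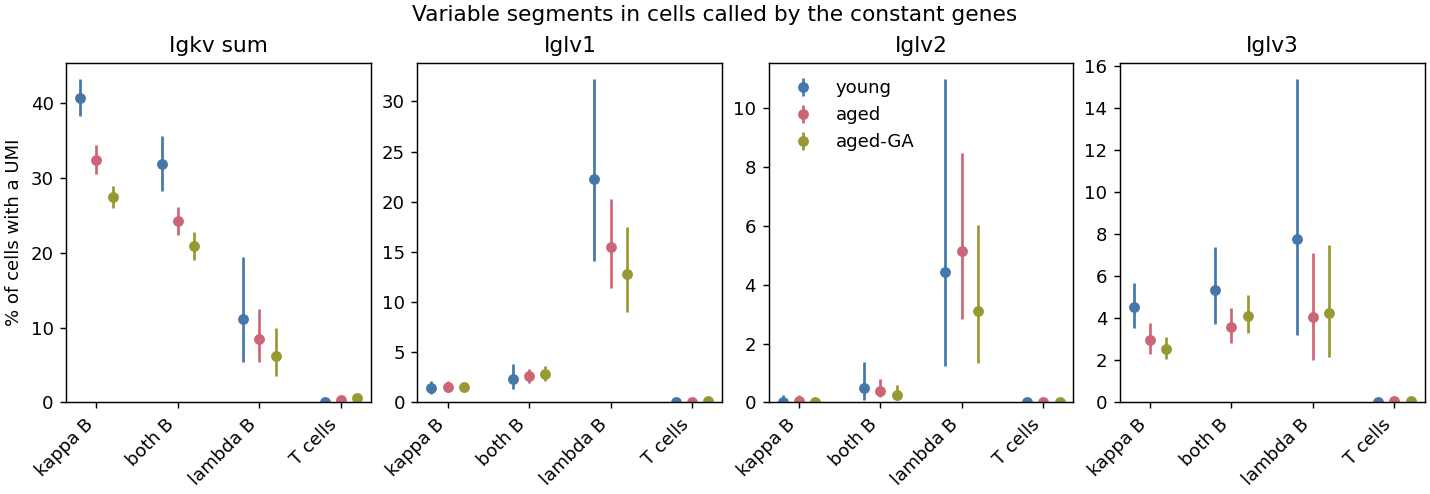
Percent of cells with at least 1 UMI (y) of any Igkv segment, Iglv1, Iglv2 or Iglv3 in kappa, both and lambda B cells and T cells, with 95% exact intervals; colors are the libraries. Iglv1 and Iglv2 stand apart in lambda cells, Igkv is highest in kappa cells, and Iglv3 overlaps between them.

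The variable segment differed with the leading constant gene. Over the 3 libraries, Iglv1 had a UMI in 62 of 262 cells led by Iglc1 and 12 of 226 led by Iglc2. Iglv2 had a UMI in 3 cells led by Iglc1 and 19 led by Iglc2, and Iglv3 in 6 and 18. By library, Iglv1 was seen in 16 of 37, 26 of 106 and 20 of 119 cells led by Iglc1, and in 2 of 45, 5 of 106 and 5 of 75 led by Iglc2. Iglv1 lies upstream of Iglc3 and Iglc1 on the minus strand, at chr16:19085017-19085500, and Iglv2 and Iglv3 lie upstream of Iglc2, at chr16:19260401-19260859 and chr16:19241207-19241690.

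The 78 plasma cells were nearly all kappa. In aged mice 42 of 44 were kappa, 2 were both and 0 were lambda, where a count of 0 allows a share of up to 6.82%. In aged-GA mice 31 of 33 were kappa, 1 was lambda and 1 was both, and the single plasma cell of young mice was kappa with 2329 Igkc and 5 lambda UMIs. The exact interval for lambda in aged-GA mice was 0.0767% to 15.8%. Both ranges include the lambda share of assigned B cells (6.05% and 4.54%), so a difference in that share was not detectable at these numbers. With both-chain cells left out, lambda was 10.9% of B cells in aged mice, which lies above the limit of 6.82%. The both share was 4.55% (0.56% to 15.5%) and 3.03% (0.0767% to 15.8%) of aged and aged-GA plasma cells. It was 44.7% and 34.1% of assigned B cells, and the cause of this difference was not tested. The light chain took a median of 19.5% of a plasma cell's UMIs in aged mice, from 1.07% to 45.5%, and of 22.9% in aged-GA mice, from 4.77% to 48.8%. In kappa plasma cells Igkc stood at 2022 and 2279 per 10000 UMIs, against 110 and 120 in kappa B cells of the same libraries.

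Lambda transcripts stood closer to their level in B cells than Igkc did in kappa plasma cells. Iglc1 stood at 9.84 and 10.9 per 10000 UMIs in aged and aged-GA kappa plasma cells against 1.65 and 1.53 in kappa B cells. Of the 740 Iglc1 UMIs in plasma cells of aged mice, 256 lay in a single kappa cell, and the median was 3 per cell. Iglc2 stood at 15.0 and 12.4 against 8.04 and 8.88, and Iglc3 at 6.08 and 5.83 against 5.64 and 5.85. The median lambda share of light chain UMIs was 1.18% and 1.27%. The lambda plasma cell of aged-GA mice held 2619 Iglc1, 270 Iglc2, 19 Iglc3 and 58 Igkc UMIs. The both cell held 3259 Igkc and 4622 Iglc1 UMIs in a barcode of 28780 UMIs that Scrublet did not call, and whether it was 1 cell or 2 was not tested. The 2 both cells of aged mice held 143 Igkc with 71 lambda UMIs and 22 Igkc with 84 lambda UMIs, far below the library's median of 3374 Igkc UMIs.

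Summed over all B cells, no constant gene differed by 2-fold between libraries. Compared with young mice, Igkc was -0.29 on the log2 CPM scale in aged mice, Iglc1 0.59, Iglc2 0.09 and Iglc3 0.48, beside a median of 0.20 over 9238 genes, of which 5.19% were 2-fold or more higher and 0.909% lower. Igkc thus lay below the median gene and Iglc1 and Iglc3 above it. In aged-GA against aged mice Igkc was 0.24, Iglc1 -0.26, Iglc2 -0.18 and Iglc3 -0.07, beside a median of -0.01 over 10003 genes, of which 0.03% were 2-fold or more higher and 1.45% lower. The 2 comparisons share the aged library. Within kappa cells Igkc stood at -0.14 for aged against young and 0.13 for aged-GA against aged, Iglc1 at 0.33 and -0.11, Iglc2 at -0.12 and 0.14, and Iglc3 at 0.38 and 0.05.

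Over 22 sums of 9 cell classes in the 3 libraries, the genes whose log2(CPM + 1) followed Igkc most closely were Mzb1, a chaperone of antibody-secreting cells (Pearson r = 0.922), Blnk, an adaptor of the B cell receptor (0.921), and Cacna1s (0.914), among 12089 genes. For the lambda sum they were Ly6d (0.948), Cd79a (0.947) and Blnk (0.942). The points share libraries, Cd79a was used to choose B cells and Mzb1 to choose plasma cells.

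Each library held both kappa and lambda cells, so genes outside the light chain loci were compared between them with the 3 libraries as blocks. Of 9552 genes tested, 55 were higher in lambda cells (0.576%) and 22 lower (0.23%) at an adjusted p under 0.05 in edgeR's quasi-likelihood test. Without the libraries as blocks 1 gene passed, and DESeq2's Wald test passed 16. The p-values rest on a spread between these libraries that the fit pools over genes, and not on spread between mice. A gene can therefore pass although its libraries differ. In young, aged and aged-GA mice the log2 ratios of Camp, a neutrophil granule gene, were -0.24, 1.95 and 3.77. Its adjusted p was 2.17e-33 in edgeR. CPM in this comparison are per TMM-scaled library without light chain genes. Ighm, the constant gene of IgM, rose in lambda cells by 0.27 ± 0.04 (log2, SE, adjusted p = 1.11e-07), from 2595, 2559 and 2697 CPM in kappa to 3238, 3030 and 3203 CPM in lambda cells. All 3 lambda values lay above all 3 kappa values. Ighd, the constant gene of IgD, was -0.12 ± 0.05 with an adjusted p of 0.529.

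Genes known from marginal zone and B-1 cells, B cell types that make much IgM, were higher in lambda cells for 5 of the 11 tested of 13 listed and lower for 0 (1 at an unadjusted p under 0.05), with a median log2 ratio of 0.30 beside -0.00 over all genes. Mzb1 rose by 0.41 ± 0.07, from 311, 286 and 300 CPM to 448, 365 and 395 CPM, without overlap of the groups. The transcription factors Zbtb20 (0.43 ± 0.08) and Bhlhe41 (0.78 ± 0.18), the tetraspanin Cd9 (0.74 ± 0.15) and Plac8 (0.27 ± 0.06) rose as well. Cr2, the complement receptor that marks marginal zone cells, was -0.37 ± 0.13 and did not pass the test (adjusted p = 0.255 in edgeR). Of 8 genes listed for age-associated B cells, 5 were tested and 2 rose, Zbtb20 and the receptor Fcrl5 (1.5 ± 0.29, with 8, 16 and 28 UMIs in lambda cells). Tbx21, Itgax and Cxcr3 of this list did not pass the filter on low counts. Itgam (0.68 ± 0.22, adjusted p = 0.173 in edgeR) stood at -0.65 without the cells that carried markers of another class. Under DESeq2 only Mzb1 of the genes named in these lists passed. Mzb1, Zbtb20 and Spn each stood in 2 lists.

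Of the 6 genes listed for immature B cells, 3 rose in lambda cells and 0 fell, with a median of 0.67. They were Sox4 (1.16 ± 0.27), Cd24a (0.30 ± 0.08) and Ly6d (0.21 ± 0.04), and Sox4 had 51 UMIs in all lambda cells, 11 of them in a single cell. Ly6d was abundant in kappa cells too, at 2135, 1611 and 1796 CPM. Cd93 (1.05) and Myb (1.11, but -0.99 in young mice) raised the median without passing in edgeR (adjusted p = 0.235 and 0.527). Lambda cells held 31 and 17 UMIs of them. None of the 3 passed under DESeq2. None of the 7 follicular genes passed the test in either direction (edgeR), with 0 higher and 2 lower at an unadjusted p under 0.05, 0 under DESeq2 and a median of -0.10. Of 12 genes of the receptor complex and its signaling, Cd79b, which also served to choose B cells, rose (0.27 ± 0.05), from 1247, 1137 and 1234 CPM in kappa to 1526, 1337 and 1506 CPM in lambda cells, while its partner Cd79a was 0.02 ± 0.04 (adjusted p = 0.978). Of 21 genes of light chain rearrangement and its control, 15 were tested and 0 passed in edgeR or DESeq2, with 2 higher and 1 lower at an unadjusted p under 0.05. Rag1, Rag2, Dntt, Igll1, Vpreb1 and Vpreb2 did not pass the filter on low counts, so the result does not cover them. Of 10 genes of plasma cells and secretion, 8 were tested and Mzb1 alone rose.

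**Figure D5:**
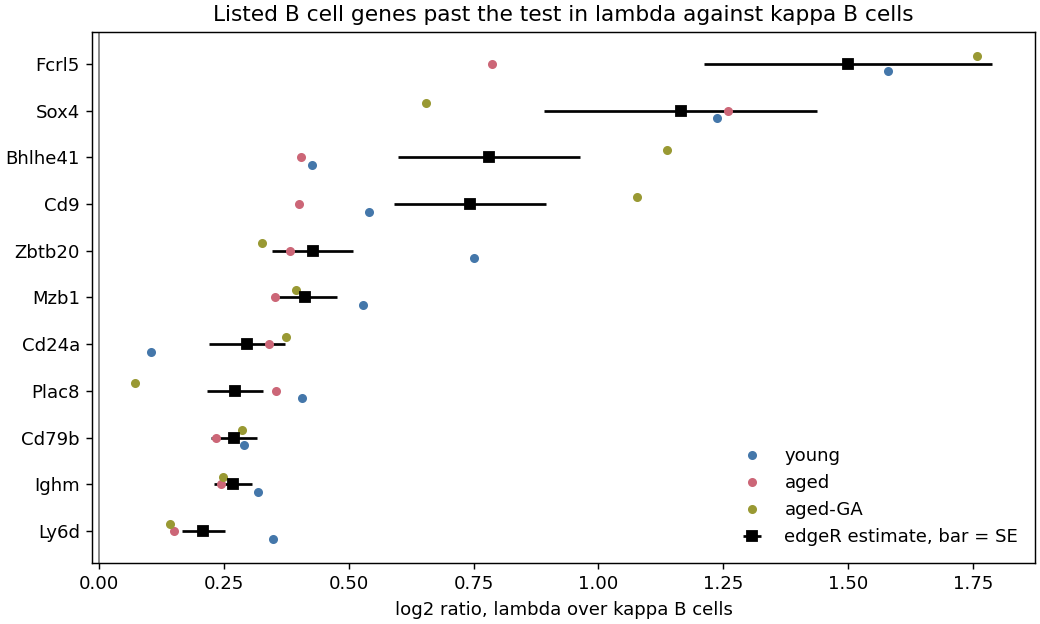
Log2 ratio of lambda over kappa B cells (x) for the listed genes past the test (y, Ighg1 left out); black squares are the edgeR estimates with their SE, and colored points the ratios of CPM + 1 in each library. All points shown lie right of 0, from 0.07 for Plac8 in aged-GA mice to 1.76 for Fcrl5 in aged-GA mice. Ighg1, not shown, stood at -0.80 in aged and 3.25 in aged-GA mice.

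Of 8 heavy chain constant genes 6 were tested, Ighm and Ighg1 rose and 0 fell in edgeR, while 3 (Ighd, Ighg2b and Igha) were lower at an unadjusted p under 0.05. Ighg2b, at -0.88 ± 0.28, passed as lower without the cells that carried markers of another class (-0.89, adjusted p = 0.037 in edgeR). Its ratios with all cells were 2.91, -2.86 and -0.31 in young, aged and aged-GA mice, so the libraries differed in sign. Lambda cells held 5, 4 and 31 Ighg2b UMIs, and 20 of these 40 lay in a single cell. Under DESeq2 Ighg2b stood at -0.08 and did not pass. Ighm passed under DESeq2 and Ighg1 did not. Ighg1 had 0, 2 and 66 UMIs in lambda cells of young, aged and aged-GA mice, the last in 3 cells, so the aged-GA library decides its value of 2.62 ± 0.36, and it did not pass the filter on low counts without that library. Outside the lists, Fam129c (1.02 ± 0.18), the stress-responsive factor Atf3 (0.96 ± 0.16), 1810046K07Rik (2.44 ± 0.43) and S100a6 (0.73 ± 0.07) were among the highest calls with the same sign in all libraries. Atf3 and 1810046K07Rik did not pass without the aged library, nor S100a6 with a limit of 90% for a single chain. Wfdc21, AA467197 and Anxa1 met the same rule, but 39.3%, 80.5% and 48.4% of their UMIs in lambda cells came from a single cell. Such dominance by 1 cell, with at least 1 in 3 of the lambda UMIs in it, held for 16 of the 55 higher calls and 1 of the 22 lower calls. Without the 2 to 32 lambda and 42 to 229 kappa cells per library that also carried markers of another cell class, 47 genes were higher and 19 lower, 32 and 14 of them among the calls above. The haemoglobin gene Hbb-bs was among the lower calls of that run (-0.38 ± 0.03, adjusted p = 2.85e-30 in edgeR). Calls can thus include transcripts of other cells, and the part of free RNA in them was not tested.

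The gene furthest below in lambda cells was Gm30211 (-2.93 ± 0.18), with 431, 929 and 1704 UMIs in kappa cells and 2, 18 and 14 in lambda cells. It is the noncoding gene that spans Igkc on the same strand, so reads of the kappa locus itself may be counted in it. Junb (-0.32 ± 0.05), an immediate early gene, the chromatin organizer Satb1 (-0.50 ± 0.08), Hs3st1 (-0.53 ± 0.10), Vps37b (-0.49 ± 0.10), Bmyc (-0.52 ± 0.10), B3gnt5 (-0.44 ± 0.10), Stk17b (-0.22 ± 0.05) and the MHC class II gene H2-Aa (-0.19 ± 0.04) fell as well, of which Junb and Satb1 also passed under DESeq2. Bmyc, B3gnt5 and H2-Aa did not pass without aged or without aged-GA, nor Stk17b without young or without aged-GA, and H2-Aa and Stk17b were also lost with both-chain cells counted as kappa. Il1b fell by 1.18 ± 0.15 on the log2 scale but stood at 0.17 without the cells that carried markers of another class. Summed T cell markers were 23.8 to 30.3 CPM in lambda and 25.3 to 38.9 CPM in kappa cells, and myeloid markers 249, 2457 and 585 CPM against 422, 1964 and 661 CPM. Their part in the calls beyond the cells left out was not tested.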

How the data were processed

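Peripheral blood mononuclear cells of mice were profiled in 3 libraries, 1 per group. Per the labels and the methods, libraries were made with the 10x 3′ version 3 kit, sequenced on DNBseq and aligned with Cell Ranger to mm10. The deposited matrix headers name cellranger 5.0.0 and the methods an older version, and the annotation is not given in the sources used here. The authors deposited raw UMI counts per gene and barcode, with no normalization. Libraries held 10842, 16038 and 17332 barcodes with 58894294, 82260961 and 98155671 UMIs, and 50 to 62 barcodes were shared between pairs of libraries.

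The study's filters were applied as its methods state them (200 or more genes, at most 90% of the largest gene number, at most 7.5% mitochondrial UMIs). The numbers of cells kept differ from those that the study reports for the 3 groups. Doublets were kept and left out as an alternative: Scrublet (scanpy 1.11.5) with an expected rate of 0.1, as the default rate called 0 in aged-GA, called 5.63%, 4.65% and 7.01% of cells. T cells had 3 or more Cd3 UMIs and at most 1 Cd79 UMI. Shares carry exact binomial and levels exact Poisson intervals (95%), and a count of 0 a limit of 3 counts. PCR copies are collapsed by UMIs, but intervals and limits cover counting error only.

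Counts of kappa and of lambda cells were summed per library, and the 6 sums were compared with edgeR 4.0.16 (R 4.3.3): light chain genes left out, filterByExpr, TMM, library as a block, quasi-likelihood test, Benjamini-Hochberg adjustment, with the SE taken as the log2 ratio over the root of F. DESeq2 1.42.0 was an alternative. The blocks come from each library holding both kinds of cell. On simulated counts for this comparison (9403 genes) the fit recovered 100% of genes changed by 2 and 85% of genes changed by 1 on the log2 scale, and called 0.0543% of unchanged genes. The simulation gave every gene the same dispersion (0.00325) and gave kappa and lambda sums the same library effects. It held no genes with UMIs gathered in a single cell, so these rates need not apply to the data. Named genes were the members, the most abundant variable segments, the genes of 8 lists, up to 10 genes per direction with the smallest adjusted p and the same sign in all libraries, and the 3 genes most like Igkc and the lambda sum. The members, lists and tests were chosen with earlier results of these data known. The limits of the level comparison, the counts with Iglc1 alone or by majority, and the runs without mixed cells, without heavy chain genes or with both-chain cells as kappa were chosen after seeing the data. Camp, Ngp, Ltf, S100a8, S100a9, Retnlg, Cxcl2 and 2010309G21Rik were named after their values were seen. Sequences and positions are from GENCODE vM21, in which all 4 member identifiers were found.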

Additional observations from a re-analysis of the deposited data

Results flagged for a closer look

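Between lambda and kappa B cells, 35 of the 55 higher and 20 of the 22 lower calls had the same sign in all libraries. Among the calls with the smallest p and the listed genes, 8 had ratios of opposite sign in different libraries, and the difference between libraries was not tested. The values are log2 ratios of CPM + 1, lambda over kappa, in the library with the highest and then the lowest ratio. The neutrophil granule genes Camp (3.77 and -0.24), Ngp (3.77 and -0.62) and Ltf (3.43 and -0.62), with S100a8 (2.72 and -1.94), S100a9 (2.24 and -2.19) and Retnlg (2.17 and -0.62), were highest in aged-GA and lowest in young mice, whose lambda cells held 0 UMIs of each. Kappa cells of young mice held 1, 3, 3, 16, 20 and 3 UMIs of these genes in the same order. Their negative ratios in young mice thus rest on few counts. Of the 339 Camp UMIs in aged-GA lambda cells 335 lay in a single cell, and of 180 in aged mice 174 did. The chemokine Cxcl2 stood at 0.49 in young and -1.94 in aged mice, the first from 1 UMI in lambda and 10 in kappa cells. Ighg1 stood at 3.25 in aged-GA and -0.80 in aged mice.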

How the results depend on the processing

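Groups of a single library have no replicate to leave out for the shares. The order aged, aged-GA, young held in 12 of 12 counts of the lambda share and 10 of 10 of the both share. Shares in percent are given below as young, aged and aged-GA. With 90% for a single chain the both share was 64.1, 78.8 and 74.1 and the lambda share 4.83 in aged and 3.54 in aged-GA. With 30 or more light chain UMIs the both share was 24.5, 41.6 and 30.5 and the lambda share 5.29 in aged and 3.83 in aged-GA. Thinned to 1000 UMIs the lambda share was 3.16 in young and 3.81 in aged-GA, and the both share 40 in aged and 30.1 in aged-GA. With free RNA subtracted the both share was 46.3 in aged and 35.5 in aged-GA. By majority the lambda share was 6.28, 10.7 and 7.19. With Iglc1 alone it was 1.76, 3.41 and 2.75, and the both share 2.48, 4.62 and 3.47. At 80% of lambda UMIs, Iglc1 led in 18.9, 21.7 and 24.4 percent of lambda cells, Iglc2 in 40, 22.4 and 16.3, and Iglc3 in 0.368 of aged. All other counts of shares stayed within the interval of the value reported.

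Of the 77 genes called between lambda and kappa cells, the DESeq2 Wald test called 16, all among the 77, and the fit with no replicate block called 1. Leaving out a library gave 30 (without aged-GA) to 115 (without young), with 49 without aged, each assuming that the rest vary alike. The other alternatives gave 58 to 93. The unfiltered fit called 46 higher and 41 lower. Gm30211 passed in all 13 alternatives, and Mzb1, Junb, Satb1, Fam129c and Wfdc21 passed in each except without the block, as did Ighm where it was tested. The named list genes below also did not pass without the block. Cd79b was lost without aged-GA, Zbtb20 under DESeq2, Cd9, Fcrl5 and Bhlhe41 under DESeq2 and without aged-GA (Fcrl5 also at 90% and Bhlhe41 also with both-chain cells as kappa), and Sox4, Plac8, Ly6d and Cd24a in 4 to 7 alternatives. Of genes outside the lists, H2-Aa and Stk17b were lost in 5 alternatives, Bmyc and B3gnt5 in 4 and Atf3, 1810046K07Rik, S100a6, Hs3st1, Vps37b and AA467197 in 2. Ighg1 was lost under DESeq2. Without cells that carried markers of another class, Anxa1 turned to -0.24 and Il1b to 0.17. The causes were not tested. Depth limits the variable segments, with at most 50 UMIs of Iglv1 in the lambda cells of a library, and the plasma cells, of which a library held at most 44.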

Other observations

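Light chain UMIs in cells that should lack them were not in the ratio of the B cells in every library. In young mice, with 1 plasma cell, T cells held 4.03 Igkc UMIs per lambda UMI, close to the 4.24 in B cells. In aged and aged-GA mice T cells held 5.86 and 7.78, against 2.86 and 3.78 in B cells and 61.2 and 16.7 in plasma cells. The value of 7.78 was raised by a single aged-GA T cell, which held 1366 of the 5008 Igkc UMIs. Monocytes or macrophages held 5.63 and 5.50, neutrophils 5.40 and 5.92 and erythroid cells 5.21 and 6.51 in the same libraries. The source of the free RNA was not tested.

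The antisense gene 2010309G21Rik, whose span covers Iglc1 and Iglc3, had 101, 185 and 280 UMIs in kappa cells and 8, 18 and 8 in lambda cells, and did not differ past the threshold (-0.50 ± 0.27, adjusted p = 0.687 in edgeR). Switched heavy chain transcripts were few in B cells: Igha stood at 7.08, 88.4 and 40.8 CPM in kappa and 2.65, 36.3 and 46.7 CPM in lambda cells of young, aged and aged-GA mice.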
